A study of Mus musculus with 2 samples.

Results

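Car2-high cells are mouse embryonic stem cells of a late-passage culture that carried at least 5 transcripts of Car2. They numbered 4322 of the 26568 time 2 cells that met the same limits, or 16.3% (exact Clopper-Pearson 95% interval 15.8 to 16.7%). A cell was a droplet barcode with at least 18000 unique molecular identifiers (UMIs, 1 per captured transcript) and 1000 detected genes, with no more than 10% of its UMIs mitochondrial. It also needed at least 10 UMIs of Pou5f1, which encodes the pluripotency factor OCT4. The summed UMIs of the primitive streak genes T, Mixl1, Lhx1, Eomes and Mesp1 had to be under 15, and those of the fibroblast genes Col1a1, Col1a2, Bgn, Mgp and S100a4 under 50. The comparison group, called Car2-zero cells, met the same limits with no Car2 UMI and held 12173 cells. The remaining 10073 cells had 1 to 4 Car2 UMIs. Both libraries together held 197530 barcodes, of which 54279 passed the limits on UMIs, genes and mitochondrial share.

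The cells came from 9 embryonic stem cell lines of the inbred strain C3H/HeSn-Paf/J, with 3 lines each from XX, XO and XY embryos, mixed before capture. Time 1 was an early passage and time 2 followed 10 further passages. Cells grew in serum with leukaemia inhibitory factor on gelatin and irradiated mouse embryonic fibroblasts, which can enter a library as feeder cells. Nothing in the files used here ties a cell to its line, so each time point is 1 sample of pooled lines.

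Mouse embryonic stem cells in serum move between a naive state, which resembles the epiblast before implantation, and a primed state, which resembles the epiblast after it. Naive cells express Klf2, Zfp42, Dppa3 and Tfcp2l1. Primed cells express Fgf5, Pou3f1 and Dnmt3b while they keep Pou5f1. Car2 encodes carbonic anhydrase 2, a cytosolic enzyme that converts carbon dioxide and water to bicarbonate and a proton. The gene lies on chromosome 3, 14886273 to 14900770, plus strand (GRCm38).

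The cells were chosen by their Car2, Pou5f1, streak and fibroblast UMIs, so every difference between Car2-high and Car2-zero cells is a description of 1 library and carries no test. Cells are not replicates. Levels are summed UMIs of a gene scaled to the total UMIs of the class (CPM), with exact Poisson 95% intervals, and the intervals cover counting error only. The time 1 library, which the choice of cells did not use, was divided by the same limits and gave 5949 Car2-high and 7269 Car2-zero cells of 24227. Its values stand beside those of time 2 as a second library.

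Car2-high cells of time 2 were deeper than Car2-zero cells, with a median of 65946 UMIs against 47341. The Car2 limits were set on raw UMIs, so they favoured deeper cells for the Car2-high class. With cells thinned to 18000 UMIs before the Car2 count, the medians before thinning were 52263 and 52086 UMIs. At an equal 10000 UMIs per cell they had a median of 2888 detected genes against 2831. Their median mitochondrial share was 1.83% against 2.24%. The median Car2-high cell had 11 Car2 UMIs, and the highest had 240. The 7491 barcodes of time 2 with under 1000 UMIs held 0.0451 Car2 UMIs each at a mean of 639 UMIs, or 70.7 CPM. The lowest barcode had 524 UMIs, and whether these barcodes hold free RNA was not tested. Between the libraries, 194 cell barcodes were shared. Doublet scores from Scrublet were in the highest 10% of the library for 19.3% of Car2-high and 5.69% of Car2-zero cells. The median score was 0.0506 in Car2-high and 0.0624 in Car2-zero cells. Without the cells of the highest 10%, Car2-high cells were 14.6% of cells meeting the limits.

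Primed epiblast genes were higher in Car2-high cells and naive genes were lower. Of the 2774 genes that reached 50 CPM in 1 class or both, 47 (1.69%) were at least 2-fold higher and 19 (0.685%) at least 2-fold lower in Car2-high cells. A gene that reached 50 CPM in 1 class only had to be higher there. Of the 12 highest ratios, Dnmt3b alone reached 50 CPM in both classes, and of the 12 lowest, Dppa3 and Mylpf alone. The median log2 ratio of these 2774 genes was 0.028. Fgf8, which encodes a fibroblast growth factor of the gastrulating embryo, headed the genes that were higher. The lowest ratio belonged to Khdc3, which encodes a KH domain protein of the oocyte and early embryo. In the time 1 library, 47 (1.72%) of 2730 genes were at least 2-fold higher and 28 (1.03%) at least 2-fold lower. All 47 genes of the higher set and all 19 of the lower set at time 2 had the same direction at time 1, where 28 and 16 of them were past 2-fold. The share of all 2774 genes with the same direction in both libraries is not given here.

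Among the signalling ligands, Fgf8 (ENSMUSG00000025219, chromosome 19, 45736798 to 45742915, minus strand) stood at 52.8 CPM (52 to 53.5) in Car2-high and 2.01 CPM (1.9 to 2.12) in Car2-zero cells. The log2 ratio was 4.16, and at time 1 the levels of 119 and 15.6 CPM gave 2.85. Fgf8 was thus higher in Car2-high cells of both libraries, and each class of time 1 was above the same class of time 2. Fgf5, a growth factor that is a classic marker of primed cells, stood at 25.3 CPM (24.8 to 25.8) against 1.18 CPM (1.1 to 1.26). Its log2 ratio was 3.59 at time 2 and 2.43 at time 1. At 10000 UMIs per cell, Fgf8 had a UMI in 30% of Car2-high cells (28.7 to 31.4%), in 1.78% of Car2-zero cells (1.55 to 2.03%) and in 0.743% of 269 fibroblast-type cells. Those cells had at least 50 fibroblast UMIs and under 3 Pou5f1 UMIs, with a median depth of 40661 UMIs, and serve as a cell type that should lack the gene. With all UMIs the Fgf8 shares were 56.2% and 6.81%. Most Car2-high cells thus had no Fgf8 UMI at the equal depth. The Fgf5 shares at 10000 UMIs were 20.1% of Car2-high, 1.24% of Car2-zero and 0.372% of fibroblast-type cells.

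Krt8 (chromosome 15, 101996698 to 102004482, minus strand) and Krt18 (chromosome 15, 102028180 to 102032027, plus strand) encode the partner keratins of simple epithelia. Krt8 stood at 138.5 CPM (137 to 139.7) in Car2-high and 10.9 CPM (10.7 to 11.2) in Car2-zero cells, a log2 ratio of 3.55. Krt18 stood at 90.5 CPM (89.5 to 91.5) against 12.2 CPM (11.9 to 12.5), a ratio of 2.79. At time 1 their ratios were 2.39 and 1.89. Keratin transcripts were unevenly spread: the 1% of Car2-high cells with most Krt8 held 25.2% of its UMIs, and the corresponding share was 34% for Krt18 against 9% for Fgf8. In Car2-zero cells these shares were 33.95% for Krt8, 28.3% for Krt18 and 44.6% for Fgf8. Tagln, an actin-binding protein of smooth muscle and fibroblasts, stood at 286 CPM (284 to 288) against 27.4 CPM (27 to 27.8), with log2 ratios of 3.34 at time 2 and 2.57 at time 1. Tagln had a UMI at 10000 UMIs in 90.7% of fibroblast-type cells, and the part of free feeder RNA in the difference was not tested. Of the other 9 fibroblast genes outside the limits, none reached 5 CPM in either class. Their levels in Car2-high cells lay between 0.012 CPM for Lum and 3.2 CPM for Fbln2. Nes (2.74), Vim (1.51) and Nefl (1.86), which encode intermediate filament proteins, had higher levels in Car2-high cells too, by the log2 ratios in brackets.

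The promoters of Krt8, Krt18 and Fgf5 are shown as those of a keratin pair and a primed marker, chosen among the genes with an entry in the RefSeq table (GRCm38.p6). The sequences run from 250 bases before to 50 bases after the RefSeq start, 5′ to 3′ on the gene's strand. Capitals mark matches to TATAAA, the core of the TATA box, or to GGGCGG, the core of the GC box, on either strand. The windows are chr15:102004293-102004592 (minus strand) for Krt8, chr15:102027966-102028265 (plus strand) for Krt18 and chr5:98253934-98254233 (plus strand) for Fgf5.
Krt8: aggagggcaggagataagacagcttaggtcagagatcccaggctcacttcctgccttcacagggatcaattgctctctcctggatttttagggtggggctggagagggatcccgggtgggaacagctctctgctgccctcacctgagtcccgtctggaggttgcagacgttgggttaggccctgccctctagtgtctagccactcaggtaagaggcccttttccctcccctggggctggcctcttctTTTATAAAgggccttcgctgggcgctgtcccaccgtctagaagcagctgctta
Krt18: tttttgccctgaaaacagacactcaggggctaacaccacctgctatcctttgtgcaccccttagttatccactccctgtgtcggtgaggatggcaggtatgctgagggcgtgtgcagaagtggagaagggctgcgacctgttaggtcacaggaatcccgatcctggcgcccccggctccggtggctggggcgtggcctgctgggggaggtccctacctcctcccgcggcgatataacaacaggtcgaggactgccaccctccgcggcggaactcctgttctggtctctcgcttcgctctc
Fgf5: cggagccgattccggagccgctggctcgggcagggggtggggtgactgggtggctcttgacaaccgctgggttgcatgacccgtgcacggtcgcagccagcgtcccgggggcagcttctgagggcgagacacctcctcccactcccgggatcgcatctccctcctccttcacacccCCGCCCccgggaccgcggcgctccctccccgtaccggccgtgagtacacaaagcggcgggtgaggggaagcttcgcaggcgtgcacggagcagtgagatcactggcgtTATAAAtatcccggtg
In Krt8, TATAAA matched both strands in 1 overlapping stretch of capitals, in which the match on the gene's own strand began 1 base before the RefSeq start. Krt18 held neither motif. In Fgf5, TATAAA began 35 bases after the RefSeq start and a GGGCGG on the opposite strand lay 74 bases before it. Of 32851 promoters of the same length, 13.6% held TATAAA and 35.7% held GGGCGG. Neither motif was matched in all 3 promoters.

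The remaining genes of the 12 highest ratios were regulators, enzymes and a gap junction gene. Pou3f1, a POU transcription factor of the primed epiblast, stood at 80.8 CPM (79.9 to 81.8) in Car2-high and 15.4 CPM (15.1 to 15.7) in Car2-zero cells, a log2 ratio of 2.32. Dnmt3b, a de novo DNA methyltransferase, stood at 252 CPM (251 to 254) against 72.2 CPM (71.6 to 72.9), a ratio of 1.79. Id1, which inhibits basic helix-loop-helix factors, stood at 176 CPM (175 to 177) against 33.1 CPM (32.7 to 33.6), a ratio of 2.38. At time 1 the ratios were 1.65, 1.08 and 1.97. The log2 ratios of the kinase gene Pim2, of Limd2 and of Gja1, which encodes connexin 43, were 2.85, 2.27 and 1.95. Of the 12, Nefl alone had a smaller ratio at time 2 than at time 1, where it was 2.57.

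The 12 lowest ratios lay between -1.53 and -1.12, and between -2.64 and -1.78 with cells thinned to 18000 UMIs before the Car2 count. Dppa3, a maternal factor that protects methylation marks and is expressed in naive cells, stood at 79.1 CPM (78.1 to 80) in Car2-high and 212 CPM (210.4 to 212.7) in Car2-zero cells, a log2 ratio of -1.41. Khdc3 stood at 37 CPM (36.4 to 37.7) against 108.7 CPM (107.9 to 109.5), a ratio of -1.53. Mylpf, a myosin light chain gene named for fast muscle, stood at 209 CPM (207.5 to 210.6) against 465 CPM (464 to 467), a ratio of -1.15. At time 1 these ratios were -1.60, -1.27 and -1.27. Others were the keratin gene Krt42 (-1.41), the X-linked homeobox genes Rhox9 (-1.33) and Rhox6 (-1.32), and the transcription factor genes Tfap2c (-1.23) and Tfcp2l1 (-1.18). The septin gene Sept1 had -1.18, the myoblast fusion gene Mymx -1.14 and the germline silencing gene Morc1 -1.12. Rhox6 and Rhox9 are paralogs, and the effect of shared sequence on their counts was not tested. In Car2-high cells, 37.3% of Rhox6 UMIs and 37.2% of Rhox9 UMIs lay in the 1% of cells with most of them. Tagln, Krt8, Pou3f1, Limd2, Nefl, Dnmt3b, Sept1, Khdc3 and Tfcp2l1 overlap another annotated gene. Only Khdc3, with Gm20509, and Tfcp2l1, with the small nuclear RNA gene Gm23497, do so on the same strand.

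All 24 named genes had the same direction in the time 1 library, and all 24 were past 2-fold there. They are part of the higher and lower sets given above, all of which kept their direction. The 12 higher genes had larger ratios at time 2 in 11 cases. The 12 lower genes had ratios farther from 0 at time 2 in 2 cases, Khdc3 and Tfcp2l1. No test of these differences between libraries was possible with 1 library per time point.

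**Figure D1:**
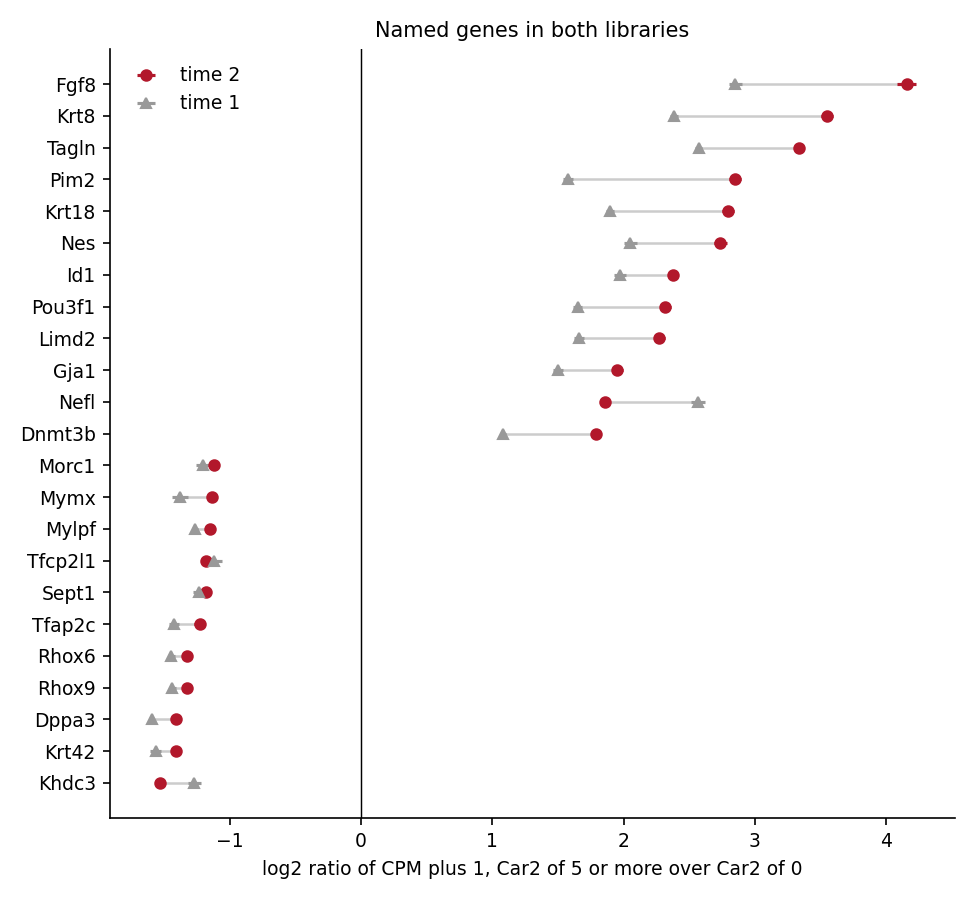
Log2 ratios of CPM plus 1, Car2-high over Car2-zero, for the named genes described here, with time 2 as circles and time 1 as triangles; bars are 95% counting intervals and often lie inside the points. All genes shown lie on the same side of 0 in both libraries, and Fgf8 has the largest shift, from 2.85 at time 1 to 4.16 at time 2.

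In the gene lists, a gene at 5 CPM or more in 1 class or both counted as measured, and 1.5-fold was the limit for higher or lower. A gene that reached 5 CPM in 1 class only had to be higher there. Of all 9075 such genes at time 2, 7.46% were higher and 4.62% lower in Car2-high cells, with a median log2 ratio of 0.023. Of 9491 such genes at time 1, 6.89% were higher and 5.51% lower. All 12 naive pluripotency genes were measured, 0 were higher and 10 were lower, with a median of -0.90. Of the 11 that reached 5 CPM in both classes, 9 were lower, and Prdm14 (2.57 against 5.24 CPM) reached it in Car2-zero cells only. With cells thinned to 18000 UMIs before the Car2 count the median was -1.98. Klf2, a Kruppel-like factor of naive cells, stood at 217 CPM (215.5 to 218.6) in Car2-high and 446 CPM (444 to 448) in Car2-zero cells, a log2 ratio of -1.04. Zfp42, the REX1 gene used as a naive reporter, had 65 against 137 CPM and a ratio of -1.07. The factors Esrrb (-0.98), Nr0b1 (-0.97), Tbx3 (-0.71) and Klf4 (-0.66) were lower as well. Nanog had 82.9 against 118 CPM, a ratio of -0.50, and Klf5 had -0.37, both within 1.5-fold. At time 1, 9 of 11 measured naive genes were lower, with a median of -0.95.

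Primed epiblast genes had the opposite pattern, with 9 of 11 higher, 0 lower and a median of 1.19. Of the 11, 7 reached 5 CPM in both classes, and 5 of those were higher. Fgf5, Sox3, Sfrp2 and Cdh2 reached it in Car2-high cells only. Besides Fgf5, Pou3f1 and Dnmt3b, the transcription factor genes Sox3 (2.04) and Zic2 (0.98) were higher. The same held for the cadherin gene Cdh2 (1.33), the Wnt antagonist gene Sfrp2 (1.19), Lin28b (0.83), which blocks let-7 maturation, and the methyltransferase gene Dnmt3a (0.68). Otx2, a homeobox factor that drives exit from the naive state, had 21.5 CPM against 19.3 CPM, a ratio of 0.15, and Zic5 had 0.49. At time 1, 9 of 11 were higher, with a median of 1.08, and Otx2 had 0.11. Otx2 differed from Fgf5 in both libraries by lying near a ratio of 0. Genes of general pluripotency moved less by their median: 2 of 8 were lower and 0 higher, with a median of -0.36. Sox2 had -0.59 and Dppa5a -0.70, while Lin28a had 0.50 and was within 1.5-fold. At time 1, 4 of 8 were lower and 0 higher, with a median of -0.55, and Sox2 had -0.99 and Dppa5a -1.09. Summed over the primed list, the levels were 548 CPM in Car2-high and 200 CPM in Car2-zero cells, with Dnmt3b alone at 252 and 72.2 CPM. At time 2, Otx2 and Zic5 were the genes within 1.5-fold. At time 1 these were Otx2 and Dnmt3a (0.13), while Zic5 had 0.75. The label of primed-like cells was not tested.

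**Figure D2:**
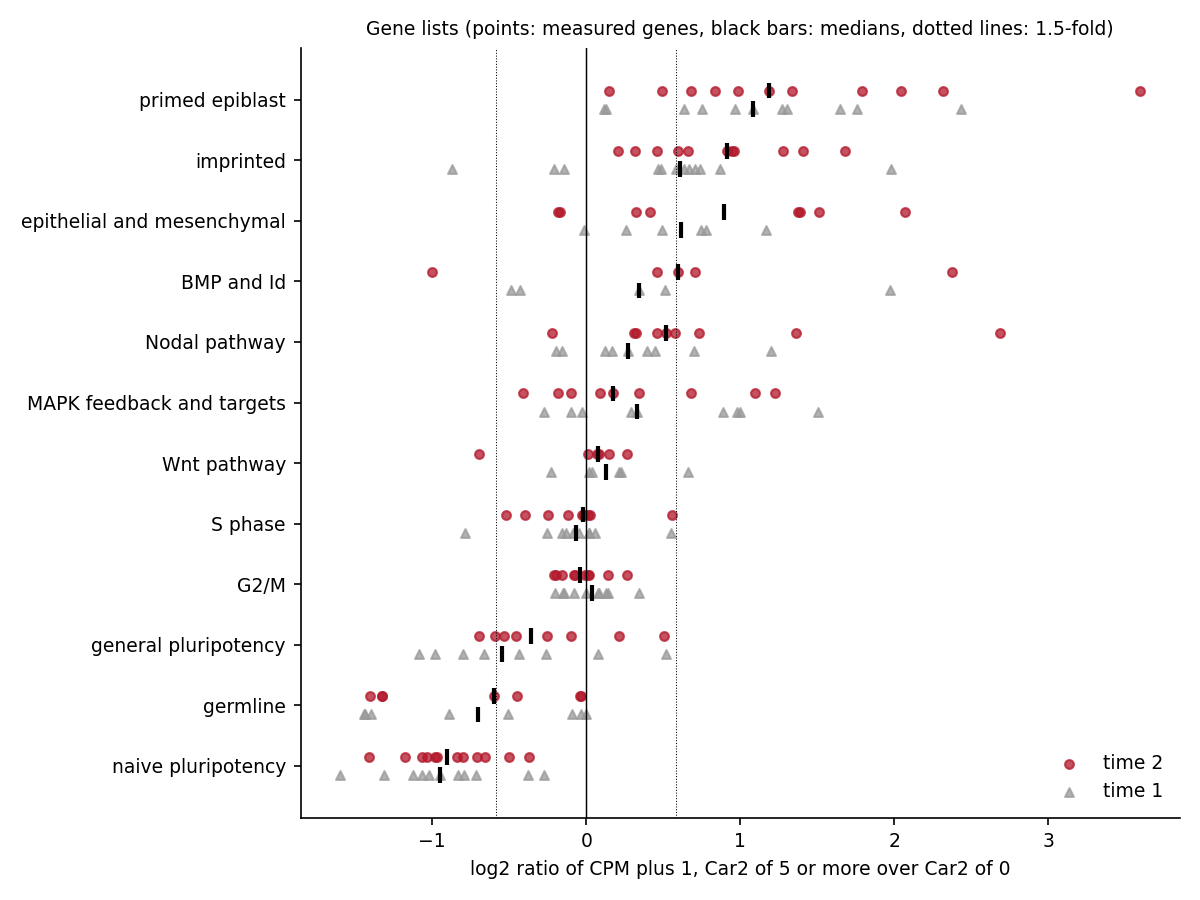
Log2 ratios, Car2-high over Car2-zero, of the measured genes of 12 lists at time 2 (circles) and time 1 (triangles), with black bars at list medians and dotted lines at 1.5-fold. Naive genes lie left of 0 with medians of -0.90 and -0.95, and primed genes right of 0 with medians of 1.19 and 1.08. The medians of the S phase and G2/M lists lie near 0, but single genes lie on both sides. The Wnt list has medians of 0.076 at time 2 and 0.13 at time 1.

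Levels followed the Car2 count in steps. With Car2 UMIs of 0, 1, 2 to 4, 5 to 9, 10 to 19, 20 to 49 and 50 or more, time 2 held 12173, 5491, 4582, 1833, 1266, 993 and 230 cells. Over these steps Fgf8 stood at 2.01, 3.7, 8.5, 26.5, 56.3, 78.9 and 112.5 CPM. Krt8 stood at 10.9, 16.5, 24, 69.7, 101.5, 211 and 505 CPM, and Dnmt3b at 72.2, 92, 129.4, 214.7, 281, 280 and 266 CPM. At time 2, Fgf8 and Krt8 were thus highest in the cells with most Car2, while Dnmt3b was nearly level from 10 Car2 UMIs upward. Time 1 differed for 2 of these genes: over the steps of 10 to 19, 20 to 49 and 50 or more, Fgf8 stood at 143.9, 141.1 and 127.6 CPM and Dnmt3b at 287, 236 and 220 CPM. Krt8 was again highest at 50 or more, with 792 CPM. Dppa3 stood at 212, 184, 149, 96.2, 80.6, 55.1 and 49.1 CPM, and Klf4 at 115, 120, 125, 98.6, 66.5, 45.9 and 30.1 CPM. Klf4, a naive factor, was lower only from 5 Car2 UMIs upward at time 2. At time 1 Klf4 stood at 61.2, 59.7 and 54.4 CPM with 0, 1 and 2 to 4 Car2 UMIs. Pou5f1 stood at 703 CPM at 0 and 581 CPM at 50 or more Car2 UMIs of time 1. At time 2 it stayed between 754 and 785 CPM in all 7 steps, with at least 10 of its UMIs required in every cell. On either side of the limit, the 567 cells with 5 Car2 UMIs and the 821 cells with 4 had 14.9 and 15.8 CPM of Fgf8, 177 and 162 CPM of Dnmt3b, and 107 and 133 CPM of Dppa3. Krt8 was at 62 and 32.3 CPM. Since the steps are in raw UMIs, they differ in depth, with medians from 47341 UMIs at 0 to 74069 at 50 or more.

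**Figure D3:**
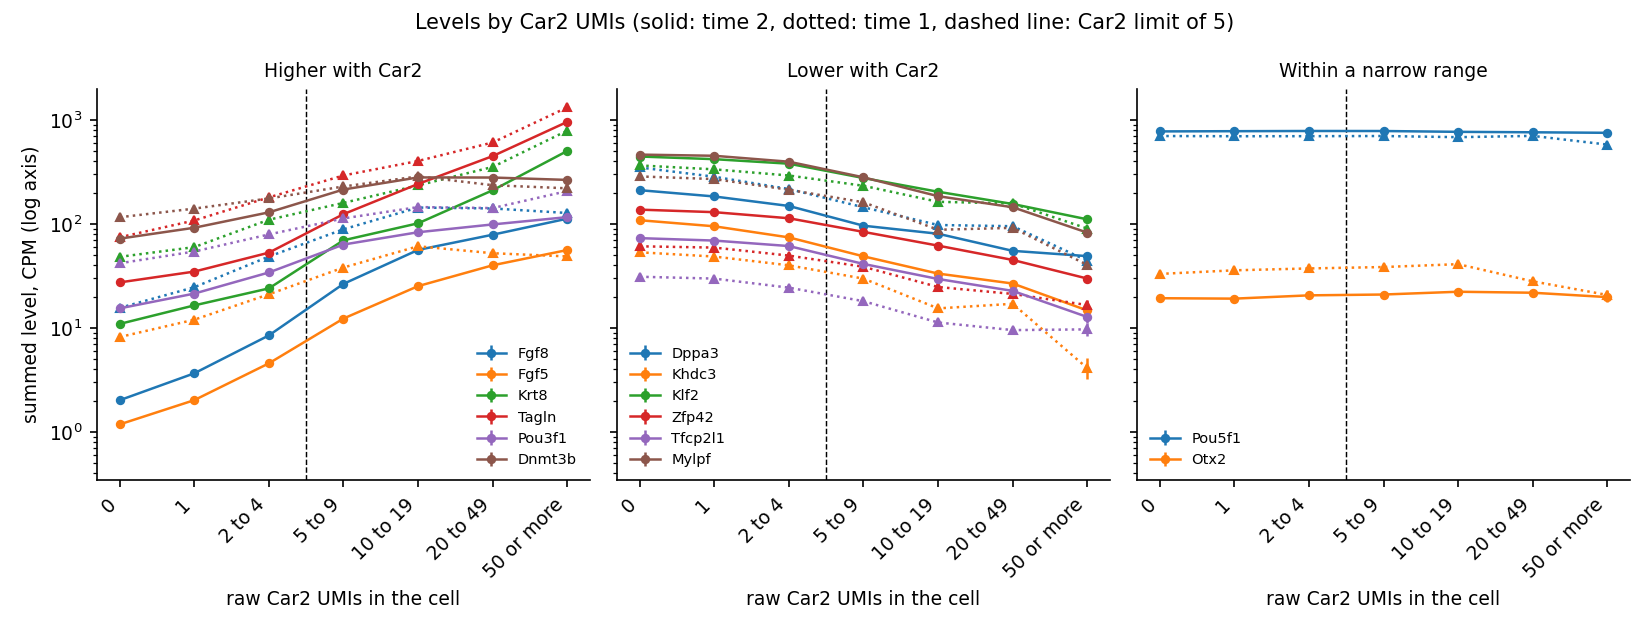
Summed levels in CPM (log axis) against raw Car2 UMIs per cell, with solid lines for time 2, dotted lines for time 1, bars for exact Poisson 95% intervals and a dashed line at the Car2 limit. Fgf8 goes from 2.01 to 112.5 CPM over the time 2 steps and Dppa3 from 212 to 49.1 CPM, while Pou5f1 stays between 754 and 785 CPM.

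Car2-high cells differed among themselves. Each cell was thinned at random to 10000 UMIs, and its UMIs of the primed and of the naive list were summed. The median primed sum was 5 UMIs in Car2-high and 1 in Car2-zero cells, and the median naive sum was 5 against 14. A primed sum above 4 UMIs, the 90th percentile of Car2-zero cells, occurred in 56.5% of Car2-high cells (55 to 58%) and 9.78% of Car2-zero cells. A naive sum below 7 UMIs, the 10th percentile of Car2-zero cells, occurred in 58.6% (57.1 to 60.1%) and 7.45%. Both held in 42.5% of Car2-high cells (41.1 to 44%), and neither in 27.4% (26.1 to 28.8%). In Car2-zero cells both held in 2.65% and neither in 85.4%. Over 1 in 4 Car2-high cells thus lay within the main range of Car2-zero cells on both sums. The share with both was 31.7% at 5 to 9 Car2 UMIs, 48.2% at 10 to 19, 52.9% at 20 to 49 and 53.5% at 50 or more. At time 1, where the limits were 7 primed and 4 naive UMIs, both held in 18.1% of Car2-high cells and neither in 47.1%.

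**Figure D4:**
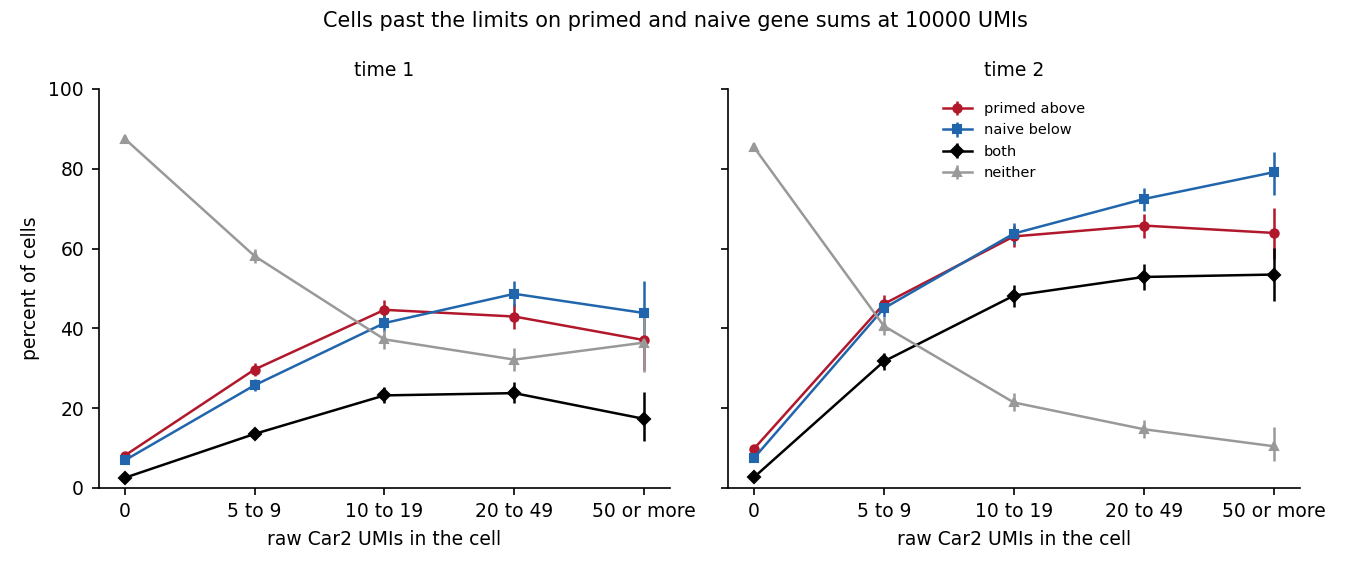
Percent of cells with a primed sum above the 90th percentile of Car2-zero cells, a naive sum below their 10th percentile, both or neither, by raw Car2 UMIs, at 10000 UMIs per cell; bars are exact 95% intervals. At time 2 the share with both goes from 31.7% at 5 to 9 Car2 UMIs to 53.5% at 50 or more, and at time 1 it is highest at 20 to 49 Car2 UMIs, with 23.7%.

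Pairs of genes were detected together unevenly within the Car2-high cells. At 10000 UMIs, Fgf5 had a UMI in 40.8% (38.1 to 43.5%) of the 1298 cells with Fgf8 and in 11.2% (10.1 to 12.4%) of the 3024 without. Krt18 had a UMI in 54.8% (52.4 to 57.2%) of the 1710 cells with Krt8 and in 19.8% (18.2 to 21.3%) of the 2612 without. Zfp42 had a UMI in 21.4% of cells with Fgf8 and 42.3% without, and Klf2 in 44.1% and 66.1%. Before thinning, cells with Fgf8 had a median of 54610 UMIs and cells without it 71126. Conversely, 44.5% of the 1556 cells with Zfp42 also had Dppa3, against 23.9% of those without, at medians of 82977 and 58790 UMIs. The deeper Car2-high cells were thus those with naive transcripts, and the part of depth or of doublets in this pattern was not tested.

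The genes whose thinned counts ranked most like those of Car2 over all 26568 cells meeting the limits were Fgf8 and Pim2, each with a Spearman correlation of 0.33. They were followed by Mdk and Tagln with 0.31, Sema6a and Nes with 0.30, Id1 and Limd2 with 0.29, and Dnmt3b and Pkdcc with 0.28. The comparison covered 8555 genes seen in at least 5% of cells. All cells share 1 library, so the values are a description. In time 1 the same genes had values from 0.21 for Pkdcc to 0.34 for Mdk.

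Of the 15 other carbonic anhydrases, 11 were below 5 CPM in both classes and 1, Car4, reached it in both. Car3, Car13 and Car14 reached it in Car2-high cells only, which fixed their direction. Car4, a membrane-anchored enzyme on the outer cell surface, stood at 40.8 CPM (40.1 to 41.5) against 7.52 CPM (7.31 to 7.73), a log2 ratio of 2.30. Car3, a cytosolic enzyme with low activity, lies on chromosome 3, 14863512 to 14872523, plus strand, close to Car2. It stood at 10.3 CPM (9.96 to 10.7) against 0.909 CPM (0.837 to 0.985), a ratio of 2.57. Over the 16 settings run, the Car3 ratio lay between 1.37 and 3.02 and the median of the measured carbonic anhydrases, 2.00 as reported, between 1.12 and 2.23. Car14, a membrane enzyme, had 1.71 and Car13, a cytosolic one, 0.39. Below the minimum, Car6, Car12 and Car5a had -0.61, -0.55 and -0.33. At time 1 the ratios were 1.46 for Car4, 1.78 for Car3, 1.54 for Car14 and 0.37 for Car13. Of 8 measured genes for bicarbonate, proton and lactate transport, 2 were higher and 0 lower, with a median of 0.30. These were Slc4a4, a sodium bicarbonate cotransporter (1.397) that reached 5 CPM in Car2-high cells only, and Slc16a3, a lactate exporter (1.23).

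In the Nodal pathway, which maintains the primed epiblast and patterns it, 3 of 9 genes were higher, 0 were lower and the median was 0.52. Of the 8 that reached 5 CPM in both classes, 2 were higher. The ligand gene Nodal itself had 45.1 against 36.2 CPM, a ratio of 0.31. Lefty1, a secreted inhibitor and target, stood at 373 CPM (371 to 375) against 145 CPM (143.7 to 145.5), a ratio of 1.36, while Lefty2 had 0.32 at time 2 and -0.16 at time 1. Lefty1 lies on chromosome 1 and had a ratio of 0.12 at time 1. In time 2 cells without a called gain of chromosomes 1, 8 and 14 its ratio was 0.79. The repressor gene Skil had 0.73 at time 2 and 0.27 at time 1.

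Among genes of the bone morphogenetic protein (BMP) pathway, Id1, Id2 (0.70) and Id3 (0.60) were higher and the ligand gene Bmp4 was lower (-0.999), of 5 measured. Bmp4 reached 5 CPM in Car2-zero cells only, with 4.79 CPM against 10.6 CPM, so its direction was set by the minimum. Id2 had the opposite direction at time 1, with -0.43. MAPK feedback and target genes gave 3 of 9 higher, namely the immediate early genes Fos (1.22) and Egr1 (0.68) and the phosphatase gene Dusp6 (1.10), with a median of 0.17. The feedback gene Spry2 had 0.17 at time 2 and 0.89 at time 1. In the Wnt list 0 of 6 were higher and 1 lower, the Wnt deacylase gene Notum (-0.70), with a median of 0.076. Notum stood at 4.67 CPM against 8.21 CPM, so it was measured through Car2-zero cells only, which fixed its direction. Axin2, a general Wnt target, had 4.86 CPM against 4.55 CPM.

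Of 11 measured imprinted genes, 8 were higher and 0 lower, with a median of 0.91. Of the 10 that reached 5 CPM in both classes, 7 were higher, and Mirg reached it in Car2-high cells only. Cdkn1c, a cell cycle inhibitor expressed from the maternal allele, stood at 47.3 CPM (46.5 to 48) against 14 CPM (13.8 to 14.3), a ratio of 1.68. Meg3, a maternally expressed noncoding RNA, stood at 245 CPM (243.5 to 247) against 91.7 CPM (91 to 92.4), a ratio of 1.41, and its neighbour Rian had 1.28. Grb10 (0.96), Mirg (0.95), Mest (0.91), Peg10 (0.66) and Snrpn (0.59) were higher too, although Peg10 had -0.14 at time 1. H19 had 19.4 CPM against 15.4 CPM, a ratio of 0.31, but -0.87 at time 1. At time 1, 6 of 12 measured genes were higher and 1 lower, with a median of 0.61.

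Of 8 measured epithelial and mesenchymal genes, 4 were higher, 0 lower and 4 within 1.5-fold. The higher genes were the tight junction genes Cldn6 (1.37) and Cldn7 (1.39), Vim and the transcriptional repressor gene Zeb2 (2.07). Zeb2 reached 5 CPM in Car2-high cells only, and of the 7 genes that did so in both classes 3 were higher. At time 1, 3 of 6 were higher. The epithelial cadherin gene Cdh1 had 83.8 CPM against 62.7 CPM, a ratio of 0.41. Germline genes gave 0 of 7 higher and 4 lower, namely Nanos3 (-1.41), Rhox6, Rhox9 and Rhox5 (-0.60). Glycolysis and hypoxia genes gave 1 of 14 higher, the glucose transporter gene Slc2a1 (0.65), and 1 lower, the phosphofructokinase gene Pfkp (-0.84). No gene of the p53 target, integrated stress response, S phase and G2/M lists was past 1.5-fold, with 8, 8, 10 and 10 measured. The medians of the 2 cell cycle lists were -0.022 and -0.042. None of the 8 two-cell-like genes reached 5 CPM in either class.

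Genes of other lineages were measured to see which cells the Car2 limit had gathered. Of 12 primitive streak genes outside the limits, 9 were below 5 CPM in both classes. The other 3 reached it in Car2-high cells only, so their direction was set by the minimum: Fgf8, the ligand gene Wnt3 (2.31) and the transcription factor gene Sp5 (1.18). Wnt3 stood at 6.79 CPM against 0.573 CPM and Sp5 at 9.81 CPM against 3.76 CPM. Of the 9 below the minimum, Wnt8a (1.90), Foxa2 (1.81) and Gsc (1.11) had the largest ratios. Wnt3a (-0.18) and Cdx1 (-0.65) alone had negative ones. At time 1, 6 genes were measured and all 6 were higher, but 5 of them reached 5 CPM in Car2-high cells only. The streak genes used in the limits were capped in all cells, so this list is cut short by the rule. Above the cap, 510 cells with at least 10 Pou5f1 UMIs had at least 15 streak UMIs, and 96.5% of them (94.5 to 97.9%) had at least 5 Car2 UMIs. Their summed Car2 level was 505 CPM (498 to 512), against 55.6 CPM (55.3 to 56) in all cells meeting the limits. The cells left out as streak-expressing thus had the higher Car2 level. In fibroblast-type cells 4.09% had at least 5 Car2 UMIs, and Car2 stood at 17.7 CPM. That level is below the 70.7 CPM of the barcodes with few UMIs, so these cells and barcodes do not give the same background. At 10000 UMIs, 8.55% of fibroblast-type cells and 23.6% of cells meeting the limits had a Car2 UMI.

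Of 8 trophoblast genes, Krt8 and Krt18 were higher and Krt7 (0.49), which reached 5 CPM in Car2-high cells only, was within 1.5-fold. The defining factors Cdx2, Gata3, Hand1, Tfap2a and Elf5 were at 1.32, 1.44, 1.71, 0.42 and 0.045 CPM in Car2-high cells. In Car2-zero cells they were at 0.448, 1.35, 0.529, 0.365 and 0.119 CPM. Of 8 neural genes, 4 were measured and 2 were higher, Nes and the transcription factor gene Sox11 (1.72). Ncam1 (0.37), which reached 5 CPM in Car2-high cells only, and Tubb3 (-0.38) were within 1.5-fold. At time 1 Tubb3 had -0.15. Sox1 and Pax6 were at 2.1 and 4.49 CPM in Car2-high and 0.735 and 2.78 CPM in Car2-zero cells. The 5 trophoblast factors, Sox1 and Pax6 were thus all below 5 CPM, while Sox11 stood at 69.5 CPM against 20.4 CPM.

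Of 10 extraembryonic endoderm genes, 4 were measured, and their UMIs were unevenly spread over cells. The 1% of Car2-high cells with most UMIs of a gene held 85.3% of those of Srgn, 71.9% for Dab2, 50.7% for Col4a1 and 19.1% for Lamb1. Srgn, a proteoglycan gene, stood at 12.9 CPM against 0.935 CPM, a log2 ratio of 2.85. Dab2, an endocytic adaptor gene, had a ratio of 2.57, and the basement membrane genes Col4a1 and Lamb1 had 2.48 and 1.02. Of the 4, Lamb1 alone reached 5 CPM in both classes. The other 3 reached it in Car2-high cells only, so the minimum set their direction. The defining factors Gata6, Gata4 and Sox17 stood at 3.07, 2.45 and 1.32 CPM in Car2-high and 0.606, 0.478 and 0.188 CPM in Car2-zero cells. At least 20 summed UMIs of the 4 genes occurred in 87 Car2-high cells, or 2.01% (1.62 to 2.48%), and in 5 Car2-zero cells, or 0.0411%. Without those cells, Srgn stood at 0.464 CPM against 0.854 CPM and Dab2 at 2.41 CPM against 1.12 CPM, both under the minimum of 5 CPM. Col4a1 and Lamb1 had ratios of 1.19 and 0.70. The cells left out were picked on the same 4 genes, at a limit chosen after the values were seen, so that smaller ratios followed from the choice. At time 1, 0.538% of Car2-high cells were past the same limit, and Srgn stood at 0.931 CPM against 1.27 CPM, under the minimum.

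Chromosome content was read from the share of UMIs on each chromosome, relative to the median of time 1 cells, and a gain was called at 1.3. Chromosome 1 gains were less frequent in Car2-high cells, with 33% (31.6 to 34.4%) against 65.5% (64.6 to 66.3%) of Car2-zero cells. The median ratio was 1.14 against 1.404. Chromosome 14 gains were called in 7.5% of Car2-high and 23.1% of Car2-zero cells. For chromosome 8 the shares were 48.7% and 55.1%. The median ratios for chromosome 8 were 1.2965 and 1.312, and the limit of 1.3 ran through the upper mode of both classes. Cells without a called gain of 8 can thus include cells of that mode. No gain of these 3 chromosomes was called in 34% of Car2-high cells (32.6 to 35.4%) and 15.4% of Car2-zero cells (14.7 to 16%). Chromosome 1 gains were called in 65.5%, 58.6%, 48%, 37.2%, 35.1%, 26.4% and 16.1% of cells over the 7 Car2 steps from 0 to 50 or more. Over the same steps chromosome 8 gains lay between 46.8% and 55.1%.

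The direction for chromosome 8 did not hold in 2 settings. With cells thinned to 18000 UMIs before Car2 was counted, the shares were 53.1% and 52.9%. Without genes that differed over 1.2-fold between the classes, they were 46.5% and 46.1%. For chromosome 1 the same settings gave 27.3% against 62%, and 33.9% against 63.5%. Against the median of time 2 itself, chromosome 1 gains were called in 0.0231% and 0.123% of cells, since gained cells then set the median. Among cells without called high X dosage and without Y transcripts, chromosome 1 gains were called in 39.3% (37.6 to 41.1%) of 3050 Car2-high and 74% (73 to 74.8%) of 9272 Car2-zero cells. In time 1, chromosome 1 gains were called in 0.185% and 1.53% of cells, and chromosome 8 gains in 3.29% and 6.73%. The ratio also moves with expression, and how far expression differences on each chromosome shift it was measured only in the setting without differing genes.

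**Figure D5:**
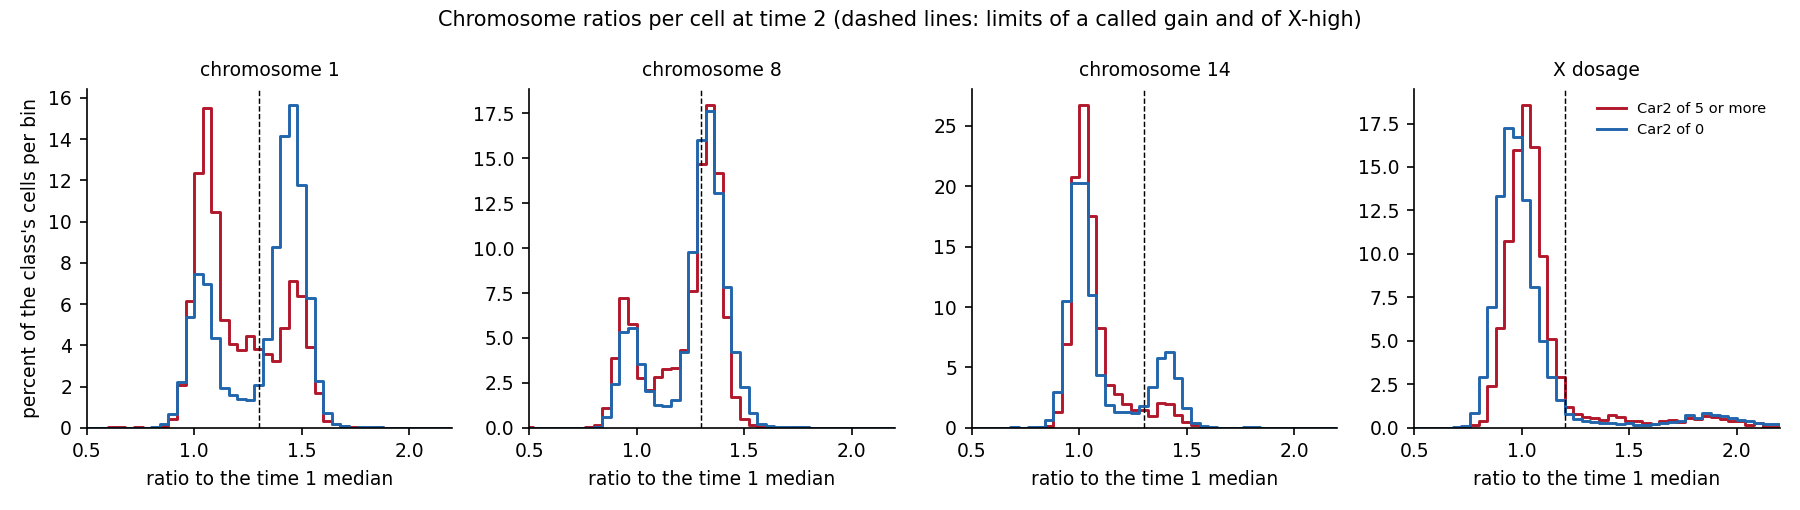
Percent of cells per bin of 0.04 against the ratio of chromosome UMIs to the time 1 median for chromosomes 1, 8 and 14, and of X dosage against Y-positive cells, in Car2-high (red) and Car2-zero (blue) cells of time 2. For chromosome 1 the median is 1.14 in Car2-high and 1.404 in Car2-zero cells, while for chromosome 8 the limit of 1.3 runs through the upper mode of both classes.

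The reverse view gave the share of Car2-high cells within each class of gains at time 2. It was 25.1% of 5865 cells without a called gain of the 3 chromosomes and 24.5% of 5621 with a called gain of 8 alone. It was 14.4% of 4208 with 1 alone, 9.39% of 5848 with 1 and 8, and 5.09% of 2592 with 1 and 14. At an equal 18000 UMIs per cell these shares were 8.83%, 11.5%, 5.01%, 2.98% and 1.2%. Cells with a chromosome 1 gain thus had the lower shares at both depths. For the other 2 classes, the intervals with all UMIs were 24 to 26.2% without a called gain and 23.3 to 25.6% with 8 alone. At 18000 UMIs the same 2 classes had intervals of 8.12 to 9.59% and 10.7 to 12.3%. These intervals cover the counting of cells in 1 library only, and the difference between the 2 classes was not tested. The class without a called gain can include cells of the upper chromosome 8 mode. In the time 1 library the shares at 18000 UMIs were 9.14% (8.76 to 9.52%) and 5.45% (4.24 to 6.89%), the opposite order. Which lines the cells came from cannot be told apart from the gains here.

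High X dosage, at least 1.2 times the median of Y-positive cells, was called in 11.9% of Car2-high (11 to 12.9%) and 11.1% of Car2-zero cells (10.5 to 11.6%). At an equal 18000 UMIs before the Car2 count, the shares were 4.23% and 13.7%, the opposite direction, in a set of 1632 Car2-high cells. Without thinning, a limit of 10 Car2 UMIs gave a difference of -4.20 percentage points and leaving out the highest doublet scores gave -0.76, against 0.84 at the limit of 5. The cause of these turns was not tested. Over the 7 Car2 steps from 0 to 50 or more the share was 11.1%, 15.9%, 21.5%, 18.8%, 8.37%, 5.74% and 3.48%. In time 1 it was 24.2% of Car2-high and 50.3% of Car2-zero cells. At least 2 UMIs of Y-linked genes were found in 12.2% and 7.56% of cells at time 2, at the unequal depths given above.

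The expression differences were measured again within the subsets. Among cells with low X dosage and no Y transcripts, the log2 ratios were 4.35 for Fgf8, 3.67 for Krt8, 1.86 for Dnmt3b and -1.52 for Dppa3. Among cells with no called gain of chromosomes 1, 8 and 14 they were 3.99, 3.45, 1.43 and -1.24, and such cells can include the upper chromosome 8 mode. In classes drawn to the same depth, with 3959 cells each, they were 4.50, 3.59, 1.83 and -1.51. Without the highest 10% of doublet scores they were 4.41, 3.77, 1.93 and -1.88. With cells thinned to 18000 UMIs before the Car2 count they were 4.49, 3.94, 1.76 and -2.19. The size for Dppa3 thus moved by over 1.5 times between settings. Of the 19 lower genes, 7 were past 2-fold in cells without a called gain of the 3 chromosomes. Of the 47 higher genes, 38 were. There the ratios were 1.296 for Srgn, 1.53 for Dab2, 1.32 for Col4a1, -0.82 for Mymx and -0.81 for Morc1. Tfcp2l1, a naive factor gene on chromosome 1, had -0.83, Sept1 -0.98 and Mylpf -0.99, so all 5 of these lower genes were within 2-fold there. Chromosome 1 gains were less frequent in Car2-high cells in each of these settings that left it to be measured.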

How the data were processed

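The authors deposited raw UMI counts, 1 whole number for each gene in each barcode, for 1 library per time point. Libraries were made with 10x Chromium chemistry of version 3.1, per the labels. Bcl2fastq 2.20.0.422, Cell Ranger 6.1.2 and the builds mm10 and GRCm38 are named in the submitters' processing notes. The libraries held 1735810403 UMIs at time 1 and 1843588321 at time 2. GENCODE M21 (GRCm38) matched 32235 of 32285 genes by identifier.

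The members and gene lists were chosen with earlier results of these data known. UMIs were summed per class and compared as log2 of CPM plus 1. The genes named are the 12 highest and 12 lowest ratios at 50 CPM or more, list members at 5 CPM or more, and the 10 genes most correlated with Car2. Of these, 2 are not reported here, though counts and medians include them. Chromosome ratios used all UMIs and left out ribosomal protein genes, as well as any gene holding over 3% of the UMIs of its chromosome. Y-positive cells had at least 2 UMIs of Ddx3y, Eif2s3y, Kdm5d and Uty. Scrublet in scanpy 1.11.5 marked 0 cells in either library, so doublets were kept and high scores removed as an alternative. Simulated folds and gains were used to test the scripts. Other alternatives changed Car2, depth, expression, doublet and gain limits, and scaling with edgeR 4.0.16. Analyses ran in Python 3.11.15, numpy 2.4.6, scipy 1.17.1, pandas 2.3.3 and R 4.3.3.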

Additional observations from a re-analysis of the deposited data

Results flagged for a closer look

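In 4 genes of the lists the log2 ratio, Car2-high over Car2-zero, had opposite directions in the libraries and lay at least 2-fold apart. Srgn, a proteoglycan gene of the extraembryonic endoderm list, had 2.85 (2.75 to 2.94) at time 2 against -0.24 (-0.38 to -0.087) at time 1, where it was under 5 CPM in both classes. At time 2 it reached 5 CPM in Car2-high cells only, where 1% of the cells held 85.3% of its UMIs. Without the 87 Car2-high and 5 Car2-zero cells described earlier, which were picked partly on Srgn, its time 2 ratio was -0.34. The keratin gene Krt7 had 0.49 (0.38 to 0.59) at time 2 against -0.78 (-0.84 to -0.72) in the other library. At time 2 Krt7 stood at 5.26 CPM against 3.47 CPM, so the minimum of 5 CPM set its direction there. The 1% of Car2-high cells with most Krt7 held 57.5% of its UMIs. The inhibitor gene Id2 had 0.70 (0.67 to 0.74) against -0.43 (-0.46 to -0.40), and the imprinted noncoding RNA H19 had 0.31 (0.25 to 0.37) against -0.87 (-0.90 to -0.84). Other list genes had opposite directions at smaller distances, among them Lefty2 with 0.32 at time 2 against -0.16 at time 1 and Tcf7l1 with 0.070 against -0.23. The intervals cover counting error only, and these differences between the libraries were not tested. A further value lies outside the cells compared: 96.5% of the 510 time 2 cells past the limit on streak genes had at least 5 Car2 UMIs.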

How the results depend on the processing

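All 24 named genes kept their direction in the 16 settings run, and so did the medians of the lists whose main median lay past 1.5-fold. Every setting reused the time 2 library, in which the named genes had the extreme ratios, so their direction had little room to turn. In the streak, extraembryonic endoderm and carbonic anhydrase lists, most measured genes reached 5 CPM in Car2-high cells only, which set their direction. Sizes moved more: over the settings the median was between -1.98 and -0.60 for naive genes (-0.90 as reported, and likewise in the next brackets), -1.71 and -0.37 for germline genes (-0.60), 1.28 and 2.77 for extraembryonic endoderm genes (2.53), and 0.79 and 1.36 for primed genes (1.19). Khdc3 (-1.53) lay between -2.64 and -1.16 and Mylpf (-1.15) between -2.39 and -0.83, with the lowest values in thinned cells. The 47 higher and 19 lower genes became 28 and 5 with at least 3 Car2 UMIs, 95 and 85 with cells thinned before the Car2 count, 102 and 35 at 20 CPM, and 472 and 65 without a minimum. They became 65 and 46 at 10 Car2 UMIs, 56 and 35 without the highest doublet scores, 55 and 34 in X-low Y-negative cells, 40 and 12 in cells without gains, where 7 of the 19 were past 2-fold, and 58 and 34 with mean per-cell CPM. The share of higher among these genes was 71.2%, and it was 52.8% with thinned cells, 58.6% at 10 Car2 UMIs, 84.8% at 3, 61.5% without the highest doublet scores, 61.8% in X-low Y-negative cells, 87.9% without a minimum and 65.2% with trimmed mean scaling. Trimmed mean scaling shifted the classes by -0.046 on the log2 scale, and ratios of low genes by less. The share of Car2-high cells, 16.3%, was 24.1% at 3 Car2 UMIs, 9.37% at 10, 6.14% when thinned, 14.6% without the highest doublet scores and 16.8% with at least 30000 UMIs.

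Differences in percentage points, Car2-high minus Car2-zero, were 0.84 for X-high, -32.5 for chromosome 1, -6.43 for chromosome 8 and -15.6 for chromosome 14. X-high gave 4.35 at 3 Car2 UMIs, -4.20 at 10, -9.43 thinned, -1.24 at matched depth and -0.76 without the highest doublet scores. Chromosome 1 gave -28.3 at 3 Car2 UMIs, -35.6 at 10, -34.8 thinned, -25.7 with a gain at 1.2, -26.7 at 1.4, -0.10 against the time 2 median, -29.5 over other autosomes and -29.6 without differing genes. Chromosome 8 reversed to 0.19 thinned and 0.42 without differing genes, and gave -3.69 at matched depth, -8.89 at 1.2, -0.070 against the time 2 median and -11.6 over other autosomes. Chromosome 14 gave -13.3 at 3 Car2 UMIs, -17.4 at 10, -14.2 at matched depth, -8.96 at 1.4 and -14.3 without differing genes. The cause was not tested, except that the time 2 median contains the gains. Removing Scrublet doublets was not run, since the automatic threshold marked 0 cells. The settings of the highest doublet scores and of differing genes were chosen after seeing the data. No paired analysis was possible because each time point has 1 library. Depth limits calls of single cells: Car2 of 0 in a cell does not show that the cell lacks Car2.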

Other observations

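Car2 was also found in time 2 cells under the limit on Pou5f1. Of 420 cells with under 10 Pou5f1 UMIs and low fibroblast and streak genes, 25.2% (21.2 to 29.7%) had at least 5 Car2 UMIs, at a median depth of 29404 UMIs. Their summed Car2 level was 143 CPM (137 to 149.7). At time 1 the corresponding cells numbered 941, with 19% (16.6 to 21.7%) at 5 or more Car2 UMIs and 114 CPM (109.97 to 117.9).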
